A study of Homo sapiens with 27 samples.

Results

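LNCaP cells treated for 6 days with 100 nM IPI-9119 were compared with LNCaP cells that received the vehicle, DMSO, for the same time. The comparison used 6 of the 27 libraries of the study, 3 of each group, chosen by the cell line and treatment that the labels give. LNCaP is an established human prostate cancer line from a lymph node metastasis and is labelled androgen sensitive. It is a different line from LNCaP95, its castration-resistant derivative, which was also studied. Both groups were grown to a confluence of about 30%, received fresh medium with the drug or vehicle, and were then left without a change of medium until harvest, per the labels' protocols. Cells and their conditioned medium were collected and pelleted together. The medium, the passage and the separateness of the cultures are not given in the labels, so p-values reflect only how far these libraries scatter, a scatter that may be technical. Poly(A) RNA was sequenced, and values are the deposited normalised read counts of genes. Of 20987 genes, 12837 had a normalised read count of 10 or more in at least 3 of the 9 LNCaP libraries and were tested.

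Fatty acid synthase, encoded by FASN, builds palmitate out of acetyl and malonyl units, and IPI-9119 inhibits this enzyme. Prostate cancer cells are known for high levels of FASN, whose transcription is raised by SREBP factors and by androgens. ATF4, a transcription factor that is translated when amino acids are short or when the initiation factor eIF2 is phosphorylated, switches on genes for the synthesis, uptake and tRNA charging of amino acids.

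The 6 libraries held between 14757874 and 24363623 reads in genes and detected between 14863 and 15586 genes. DMSO replicate 1 stood apart from the other DMSO libraries: the chi-square per degree of freedom between read counts was 38.3 and 37.4 against replicates 2 and 3, and 5.53 between those. Among the 100 nM libraries it was 26.0 and 52.8 for replicate 1 against replicates 2 and 3, and 16.9 between those. The median standard deviation (SD) of a gene over the DMSO libraries was 0.159 on the log2 scale, and 0.0717 over replicates 2 and 3. All 12 luminal prostate markers, which define this cell type, were detected, with a summed level of 122660 to 138700 in DMSO and 102100 to 120110 at 100 nM. Basal markers summed to 407 to 570.1 in DMSO and 559.5 to 643 at 100 nM, with TP63 and KRT17 at 0, and neuroendocrine markers to 244 to 471 and 433 to 556. Mesenchymal markers summed to 606 to 709.8 in DMSO and 921 to 1079 at 100 nM, with COL1A2, DCN and ZEB2 at 0 in the 6 libraries. Basal and neuroendocrine sums overlapped between the groups. The luminal sum was lower in every treated library, and 5 of the 12 markers passed the test as lower and 1 as higher. These counts stand beside 11.6% and 13.7% of all genes. The mesenchymal sum was higher in every treated library, and 2 of 5 markers tested passed as higher. Of 3 basal markers tested, KRT14 fell (-1.71 ± 0.40, adjusted p = 0.0106 in limma, log2 fold change ± its standard error). The other basal markers tested, DST (0.48, limma adjusted p = 0.0508) and ITGB4 (0.18, limma adjusted p = 0.339), had positive changes that did not pass the test. The part of these markers in the results was not tested. In bulk RNA, fewer cells of one kind and less RNA per cell cannot be told apart.

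Log2 fold changes are 100 nM over DMSO on the log2(value + 1) scale, with the standard error (SE) after ±, n = 3 libraries per group. A gene was called at an adjusted p under 0.05 in limma with Benjamini-Hochberg adjustment. Per-library values are always given in the order of replicates 1, 2 and 3. Of all genes tested, 13.7% were called higher and 11.6% lower, and 792 of the called genes changed by at least 2-fold, 582 of them upward and 210 downward. The median log2 fold change over all genes was -0.0034. The 3 libraries of one group did not overlap those of the other in 36.8% of genes, 18.2% with 100 nM higher and 18.6% with 100 nM lower. Several libraries bore on the count of called genes, 3250 in all. Removing DMSO replicate 2, DMSO replicate 3 or 100 nM replicate 2 left 1764, 1747 and 1895 respectively, and removing DMSO replicate 1 gave 4629. Gene lists are therefore described by how many measured members were called, beside these shares of all genes.

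**Figure D1:**
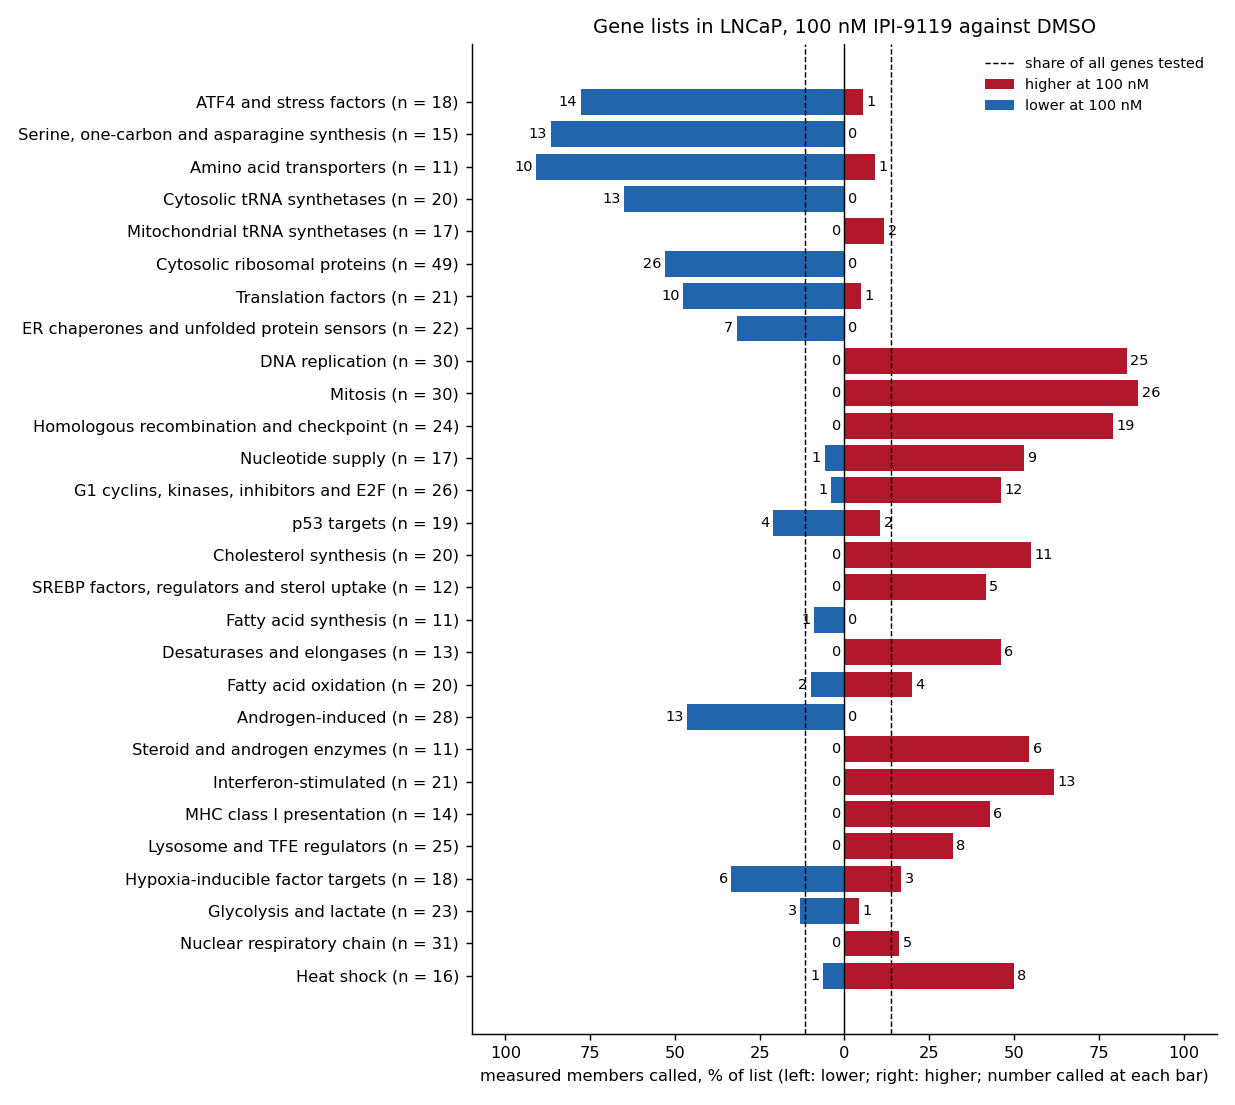
Share of the measured members of 28 gene lists called lower (blue, left) or higher (red, right) at 100 nM IPI-9119 against DMSO in LNCaP, in percent of the list, with the number called at each bar; dashed lines mark the 11.6% and 13.7% of all genes tested. The bars of the ATF4, serine, transporter and cytosolic tRNA synthetase lists run to the lower side, and those of DNA replication and mitosis to the higher side.

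Genes of the ATF4 response fell at 100 nM. Of 18 genes in a list of ATF4 and stress factors, 14 fell and 1 rose, with a median log2 fold change of -1.26, against 11.6% of all genes called lower and 13.7% called higher. ATF4 itself was read at 17940.0, 20609 and 19498 in the DMSO libraries and at 5959, 6477 and 6635 at 100 nM. All 3 treated libraries lay far below the controls (log2 fold change -1.60 ± 0.13, limma adjusted p = 4.08e-05). CHAC1, a glutathione-degrading enzyme and a direct ATF4 target, had 1275, 1706 and 1717 in DMSO and 223, 285 and 298 at 100 nM, a log2 fold change of -2.54 ± 0.23 (adjusted p = 5.65e-05). DDIT3, which encodes the stress factor CHOP, had 1366, 1760.5 and 1654 against 628, 419 and 486, with the treated libraries again below every control (-1.65 ± 0.15, adjusted p = 7.32e-05). TRIB3, a pseudokinase induced by ATF4 and CHOP, fell by 1.93 on the log2 scale, STC2, a secreted glycoprotein, by 2.14, and DDIT4 and SESN2, both inhibitors of mTORC1 signalling, by 1.69 and 1.18. CEBPB (-1.72) and CEBPG (-1.17), the bZIP partners of ATF4, fell too. The exception was EIF2AK3, which encodes PERK, the eIF2 kinase of the endoplasmic reticulum. Its level was 722, 622 and 633 in DMSO and 1061, 833 and 923 at 100 nM, and it rose (0.51 ± 0.12, adjusted p = 0.0103). ATF3 (-0.31 ± 0.22, adjusted p = 0.313), PPP1R15A (-0.045 ± 0.28, adjusted p = 0.919) and EIF2AK4, the kinase GCN2 (-0.14 ± 0.069, adjusted p = 0.145), did not pass the test. Leaving out any 1 of the 6 libraries left 14 or 15 members called lower.

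Short promoter stretches are shown because they hold the element that ATF4 and C/EBP factors are known to bind in genes of this group. The sequences are from RefSeq, build GRCh38.p14, 5′ to 3′ on the strand of the gene, and capitals mark the C/EBP-ATF element TGATGNAA or, on the opposite strand, its reverse complement.
ATF3: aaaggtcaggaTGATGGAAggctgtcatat
CEBPG: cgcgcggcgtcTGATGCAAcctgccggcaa
CHAC1: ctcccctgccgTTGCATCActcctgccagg
ASNS: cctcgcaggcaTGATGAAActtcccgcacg
MTHFD1L: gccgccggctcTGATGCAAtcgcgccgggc
SLC1A5: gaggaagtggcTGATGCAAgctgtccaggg
They lie at chr1:212565205-212565234 for ATF3, chr19:33374060-33374089 for CEBPG, chr15:40953251-40953280 for CHAC1 and chr6:150866346-150866375 for MTHFD1L, all on the plus strand, and at chr7:97872458-97872487 for ASNS and chr19:46784893-46784922 for SLC1A5 on the minus strand. The element began 191 bases before the annotated start in ATF3, 42 in CEBPG, 209 in CHAC1, 68 in ASNS, 129 in MTHFD1L and 97 in SLC1A5. In the 250 bases before the start, searched on both strands, the letters were found in 3.89% of 27305 genes with a promoter sequence at hand, in 4 of 16 genes of the ATF4 list (25%), 3 of 11 of the serine list (27.3%) and 1 of 10 amino acid transporters. Of the 4 ATF4-list genes that hold it, CHAC1, CEBPG and JDP2 fell and ATF3 did not pass the test. A match describes the letters only and does not show a bound site.

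Enzymes that make serine, one-carbon units, asparagine and related amino acids fell as a group. In this list 13 of 15 measured genes fell, beside 11.6% of all genes. None passed the test upward, and the median log2 fold change was -1.13. PCK2, the mitochondrial phosphoenolpyruvate carboxykinase, had 17592, 18522 and 19469 in DMSO and 4783, 4774 and 4223 at 100 nM (-2.01 ± 0.11, adjusted p = 7.39e-06 in limma). The treated libraries lay close together and far below the controls. ASNS, asparagine synthetase, whose promoter stretch is printed above, had 12165, 16645 and 18248 against 4361, 4254 and 4222 (-1.85 ± 0.16, adjusted p = 5.23e-05). Its 3 treated libraries were almost equal, while DMSO replicate 1 was the lowest control. PHGDH, PSAT1 and PSPH carry out the consecutive steps from 3-phosphoglycerate to serine, and all fell: PHGDH by 1.21, PSAT1 by 1.47 and PSPH by 1.13 on the log2 scale. SHMT2 (-1.07 ± 0.089, adjusted p = 4.08e-05) and MTHFD2 (-1.63 ± 0.13, adjusted p = 3.09e-05), which move one-carbon units in mitochondria, fell with MTHFD1L (-1.14). CTH, the last enzyme of cysteine synthesis, fell by 1.27. The smallest change among those called was that of GOT1, an aspartate aminotransferase (-0.36 ± 0.075, adjusted p = 0.00647). Leaving out any 1 library also gave 13 calls lower, with 1 higher without DMSO replicate 1.

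Amino acid transporters moved the same way. Of 11 measured, 10 fell and 1 rose, beside 11.6% and 13.7% of all genes, with a median of -1.26. SLC7A11, the cystine/glutamate exchanger, had 1769, 1736 and 1724 in DMSO and 350.3, 414 and 694 at 100 nM, and the highest treated library was still under the lowest control (-1.90 ± 0.25, adjusted p = 0.000479 in limma). SLC1A5, a carrier of glutamine and other neutral amino acids, had 6585, 6181 and 6390.2 against 2000.0, 2520.5 and 2195 (-1.52 ± 0.13, adjusted p = 4.08e-05). SLC6A9, a glycine transporter, fell by 1.94, SLC7A5 and SLC3A2, the light and heavy chains of the large neutral amino acid carrier, by 1.44 and 0.60, and SLC7A1, a carrier of cationic amino acids, by 1.26. SLC36A4 was the member that rose, from 156, 166 and 169 to 315, 277 and 246 (0.76 ± 0.12, adjusted p = 0.00177). The call of SLC38A1, a glutamine carrier (-0.60 ± 0.14, adjusted p = 0.0112), was lost without 100 nM replicate 2.

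The enzymes that charge tRNAs are encoded by separate genes for the cytosol and for mitochondria. Of 20 cytosolic aminoacyl-tRNA synthetases 13 fell (median -0.58), beside 11.6% of all genes. Of 17 mitochondrial ones 2 were called higher, a share near the 13.7% of all genes, and none lower (median 0.046). SARS, the seryl enzyme, had 12180.0, 14393 and 14761 in DMSO and 5844, 5761 and 5421 at 100 nM (-1.28 ± 0.11, adjusted p = 4.08e-05 in limma). GARS, the glycyl enzyme, had 17013, 18820.0 and 19694 against 7739, 7827 and 7521 (-1.26 ± 0.12, adjusted p = 7.44e-05). In both genes the treated libraries were close together and below all controls. CARS (-1.04), AARS (-0.98), YARS (-0.96) and MARS (-0.89) fell as well, and WARS, also known as an interferon-induced synthetase, fell by 0.54. Leaving out any 1 library also gave 13 cytosolic calls lower, with 1 higher without DMSO replicate 1 or 100 nM replicate 3. The mitochondrial calls were LARS2 (0.35 ± 0.088, adjusted p = 0.0149) and VARS2 (0.44 ± 0.14, adjusted p = 0.0442). Both were lost without DMSO replicate 2, DMSO replicate 3 or 100 nM replicate 2, and VARS2 also without 100 nM replicate 1 or 3, with edgeR, with no filter and after quantile normalisation. The C/EBP-ATF letters were found in 3 of 16 cytosolic synthetase genes with a promoter sequence (18.8%) and in 1 of 14 mitochondrial ones (7.14%).

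**Figure D2:**
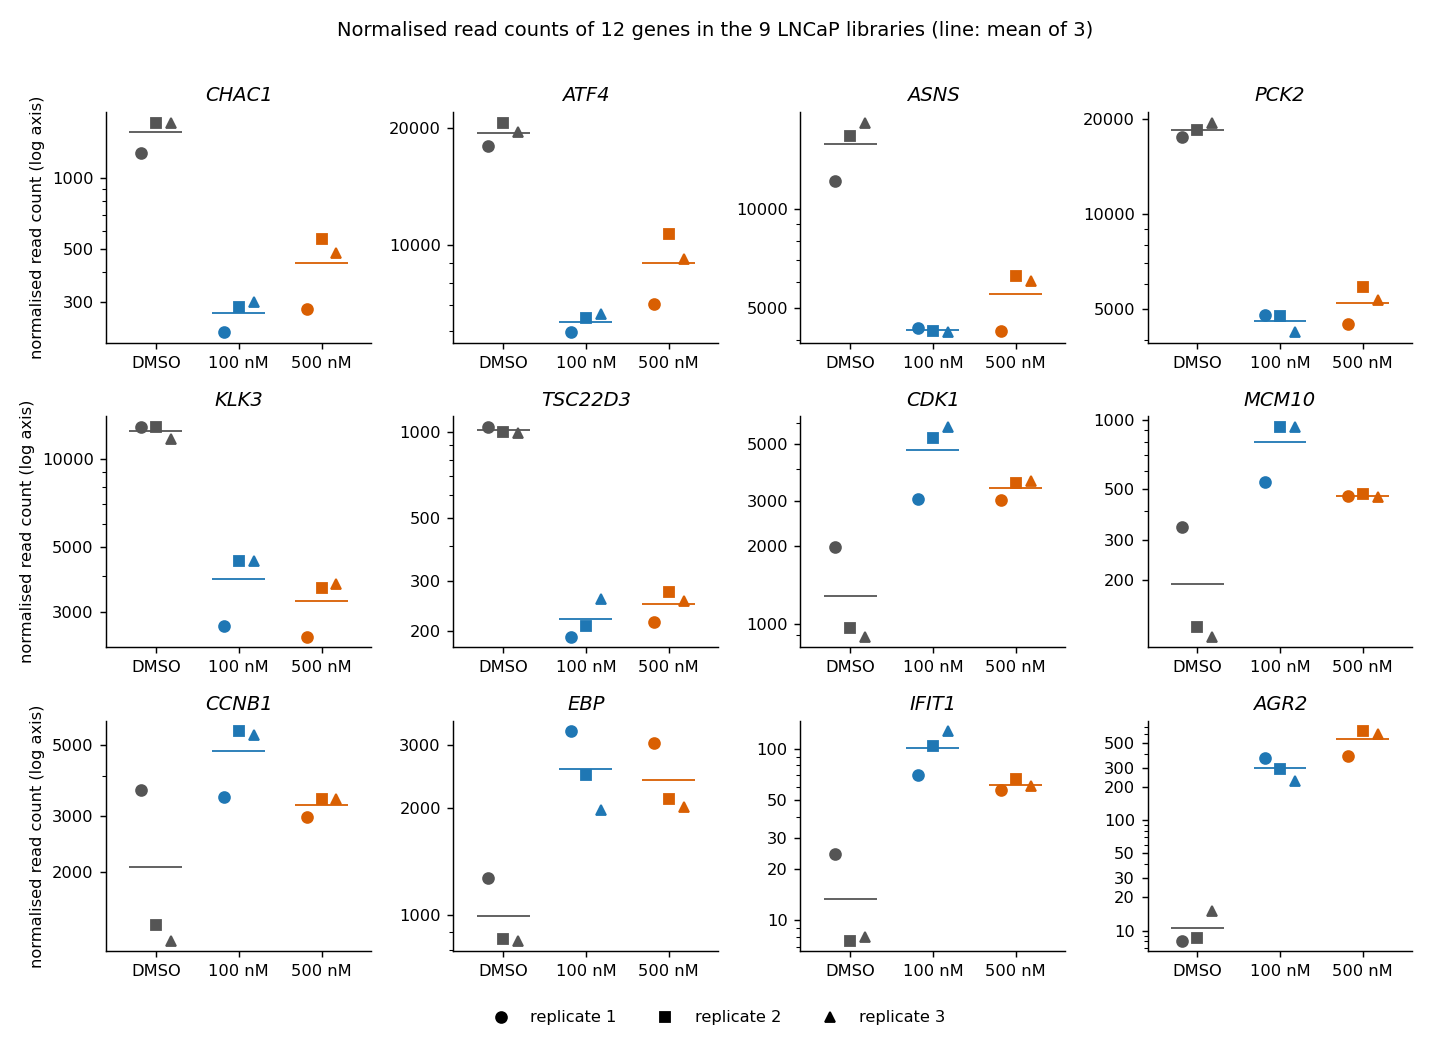
Normalised read counts (log axis) of 12 genes in the 9 LNCaP libraries, by treatment; each symbol is 1 library, its shape the replicate number, and the line the mean of 3. CHAC1, ATF4, ASNS, PCK2, KLK3 and TSC22D3 are lower and CDK1, MCM10, EBP, IFIT1 and AGR2 higher in every 100 nM library than in every DMSO library, whereas CCNB1 in DMSO replicate 1 overlaps the 100 nM libraries.

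Genes of the unfolded protein response and of translation fell in part, beside 11.6% of all genes called lower. Of 22 chaperones and sensors of the endoplasmic reticulum 7 fell, among them ERN1, which encodes the sensor IRE1, from 592, 625 and 646 in DMSO to 201, 164 and 276 at 100 nM (-1.57 ± 0.17, adjusted p = 0.000174 in limma). XBP1, the factor whose mRNA IRE1 splices, fell by 0.90 and HERPUD1, a part of the degradation machinery of this compartment, by 0.90. HSPA5, the main chaperone there, had 29101, 25496 and 26995 against 32934, 27540.0 and 25801, and the groups overlapped (0.075 ± 0.13, adjusted p = 0.693). The number of calls was 4 without DMSO replicate 3. Among 21 translation factors 10 fell and 1, EIF2S1, rose (0.41 ± 0.080, adjusted p = 0.00487). EIF4EBP1, an inhibitor of cap-dependent initiation and an ATF4 target, had 4027, 3847 and 3639 against 1912, 2422 and 2009 (-0.87 ± 0.096, adjusted p = 0.000194). EIF1 (-0.92 ± 0.12, adjusted p = 0.000634) fell as well. Fewer translation factors were called lower without DMSO replicate 3, where 6 were.

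Cytosolic ribosomal protein genes were lower by a small and similar amount. All 49 measured members had a negative log2 fold change, between -0.63 and -0.16, with a median of -0.36. In 41 of them every 100 nM library was below every DMSO library, against 18.6% of all genes. The test called 26 of the 49 lower, beside 11.6% of all genes. RPL5 had 35571, 43710.0 and 47033 in DMSO and 29562, 28164 and 25127 at 100 nM (-0.60 ± 0.12, adjusted p = 0.00486 in limma), and RPL12 had 38791, 40275 and 42310.0 against 30509, 27593 and 21230.0 (-0.63 ± 0.13, adjusted p = 0.00625). In both, 100 nM replicate 3 was the lowest library. The number called moved with the libraries: 4 without DMSO replicate 3, 6 without DMSO replicate 2, 15 and 16 without 100 nM replicates 2 and 3, and 41 in replicates 2 and 3 alone. It was 12 with no filter on low values, 16 after quantile normalisation and 7 with only the 6 libraries compared. The values of single ribosomal protein genes are uncertain, since their many pseudogenes may share reads. Mitochondrial ribosomal protein genes had a median of 0.13, with 5 of 34 called higher, a share near that of all genes, and removing DMSO replicates 1, 2 and 3 in turn gave 10, 1 and 2 calls, and 100 nM replicates 1, 2 and 3 gave 3, 1 and 8. MYC had 8964, 9325 and 8392 against 6295, 6307 and 5922 and fell (-0.53 ± 0.091, adjusted p = 0.00249).

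Genes that copy DNA rose at 100 nM. Of 30 genes of the replication machinery 25 rose, beside 13.7% of all genes. None passed the test downward, and the median log2 fold change was 1.05. In 20 of the 30 every 100 nM library was above every DMSO library, against 18.2% of all genes. MCM10, which loads replication factors at origins, had 342, 126 and 114 in DMSO and 538, 932 and 930.4 at 100 nM (2.18 ± 0.35, adjusted p = 0.00163 in limma). DMSO replicate 1 was the highest control and 100 nM replicate 1 the lowest treated library. The same order was seen in MCM6, a subunit of the replicative helicase, with 1466, 1124 and 1069 against 2250.4, 3146 and 2994 (1.20 ± 0.14, adjusted p = 0.000268), and in PCNA, the sliding clamp, with 3006, 2539.9 and 2296 against 4368, 6238 and 5969.6 (1.07 ± 0.14, adjusted p = 0.000431). CDC6 (1.74), FEN1 (1.64), GINS2 (1.59) and ORC1 (1.67) rose further than the median. When any 1 library was left out, between 19 and 29 of the 30 were called higher.

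Genes that supply nucleotides and that start the cell cycle were higher beside them. Of 17 nucleotide supply genes 9 rose and 1 fell, beside 13.7% and 11.6% of all genes. TYMS, thymidylate synthase, had 1548, 886 and 777 in DMSO and 2277, 3126 and 2760.0 at 100 nM (1.40 ± 0.21, adjusted p = 0.00115 in limma), and RRM2, a subunit of ribonucleotide reductase, had 1185, 363 and 297 against 1414, 2281 and 2192 (1.93 ± 0.40, adjusted p = 0.00628). IMPDH2, an enzyme of the first step of guanine nucleotide synthesis, fell (-0.49 ± 0.090, limma adjusted p = 0.0032), while IMPDH1, of the same step, rose (0.66, limma adjusted p = 0.00215). Of 26 G1 cyclins, kinases, inhibitors and E2F factors 12 rose and 1 fell, beside the same shares. CCNE2, a cyclin of the entry into S phase, had 172, 126 and 109 against 342, 453 and 575 (1.74 ± 0.20, adjusted p = 0.000253), and E2F1, a factor that drives that entry, had 739.8, 304 and 305 against 1160.2, 1406 and 1186 (1.60 ± 0.27, adjusted p = 0.00232). CDC25A, a phosphatase that activates CDK2, rose by 1.55 and CDK2 itself by 1.03. The gene that fell was CDKN1B, which encodes the CDK inhibitor p27, from 1440.3, 1559 and 1634 to 1041, 1054 and 1180.1 (-0.50 ± 0.093, adjusted p = 0.00356). CCND1 (-0.034 ± 0.14, adjusted p = 0.876) and CDKN1A, which encodes p21 (0.044 ± 0.20, adjusted p = 0.889), did not pass the test. With 1 library left out, 6 to 9 nucleotide supply genes and 8 to 14 genes of the G1 list were called higher.

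Genes of mitosis had a higher median than those of replication, but their groups overlapped in most members. Of 30 mitosis genes 26 were called higher, beside 13.7% of all genes, and none lower. The median log2 fold change was 1.39, and in 5 of the 30 the groups did not overlap, against 18.2% of all genes. CDK1, the kinase that starts mitosis, was one of the 5, with 1992, 960.4 and 889 in DMSO and 3051, 5289 and 5819 at 100 nM (1.93 ± 0.29, adjusted p = 0.00118 in limma). CCNB1, its cyclin partner, had 3619, 1362 and 1215 against 3426, 5514 and 5345 (1.36 ± 0.33, adjusted p = 0.0137). Here DMSO replicate 1 exceeded 100 nM replicate 1, while DMSO replicates 2 and 3 were below all treated libraries. MKI67, a marker of cycling cells, showed the same pattern, with 1820.0, 534 and 374 against 1328, 2144 and 2501 (1.43 ± 0.45, adjusted p = 0.0376). The number of mitosis genes called was 6 without DMSO replicate 2, without DMSO replicate 3 or without 100 nM replicate 2, and 11 without 100 nM replicate 3. CCNB1 and MKI67 lost their calls in each of the first 3 of these settings, and MKI67 also without 100 nM replicate 3 and with edgeR and DESeq2. It was 30 without DMSO replicate 1, and 30 in replicates 2 and 3 alone, where the median was 2.20 and 18.7% of all genes were called higher. DESeq2 on recovered reads called 14 and edgeR 20. The mean log2 level of the list was 9.90 in DMSO replicate 1, 8.46 and 8.26 in the other DMSO libraries, and 9.70, 10.50 and 10.53 at 100 nM.

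Stretches of 4 mitosis promoters are shown because the cell cycle homology region, with the letters TTTGAA, marks genes that peak in G2 and mitosis, often beside a CCAAT box. Capitals mark these letters or their reverse complements, and the sequences are from RefSeq, build GRCh38.p14, on the strand of the gene.
CDC20: gacggttggatTTTGAAggagCCAATaggc
CDK1: agtataataaaTTTGAActgtgCCAATgct
KIF11: tctgtctctttTTCAAAttgaggcgccgag
MKI67: aaTTTGAAtcttcgttttcgTTTGAATTGG
They lie at chr1:43358905-43358934 for CDC20, chr10:60778159-60778188 for CDK1 and chr10:92593091-92593120 for KIF11 on the plus strand, and at chr10:128126443-128126472 for MKI67 on the minus strand. In KIF11 the element lies on the opposite strand, and in MKI67 the second TTTGAA overlaps a CCAAT box of the opposite strand. Searched on both strands over 250 bases before the start, TTTGAA was found in 16.1% of all genes, in 14 of 25 mitosis genes (56%) and in 0 of 27 DNA replication genes with a promoter sequence. The letters CCAAT were found in 37% of all genes, in 19 of 25 mitosis genes (76%) and in 15 of 27 DNA replication genes (55.6%). No match says only that the letters are not in this window.

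Genes of homologous recombination and the replication checkpoint were called higher in 19 of 24 cases, beside 13.7% of all genes. CLSPN, which encodes the checkpoint mediator claspin, had 399, 205 and 123 in DMSO and 680.1, 1033 and 994 at 100 nM (2.03 ± 0.32, adjusted p = 0.00161 in limma). Every treated library was above every control. EXO1 (1.35) and RAD54L (1.37) rose as well. Removing DMSO replicates 2 and 3 in turn gave 10 and 9 calls, and removing 100 nM replicates 2 and 3 gave 8 and 10. Among 19 p53 targets 4 fell and 2 rose, against 11.6% and 13.7% of all genes. BBC3, which encodes the death effector PUMA, had 254, 283 and 295 against 129.8, 166 and 145 and fell (-0.91 ± 0.14, adjusted p = 0.00114), and FAS, a death receptor, rose from 66.9, 84.4 and 99.9 to 193, 156 and 167 (1.04 ± 0.17, adjusted p = 0.00192). GDF15, a secreted stress cytokine, had 55017, 25974 and 29463 against 19862, 15510.0 and 12849. It fell by 1.14, and DMSO replicate 1 was the highest library. The p53 list had 1 member called higher without any 1 of the libraries other than 100 nM replicate 1.

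**Figure D3:**
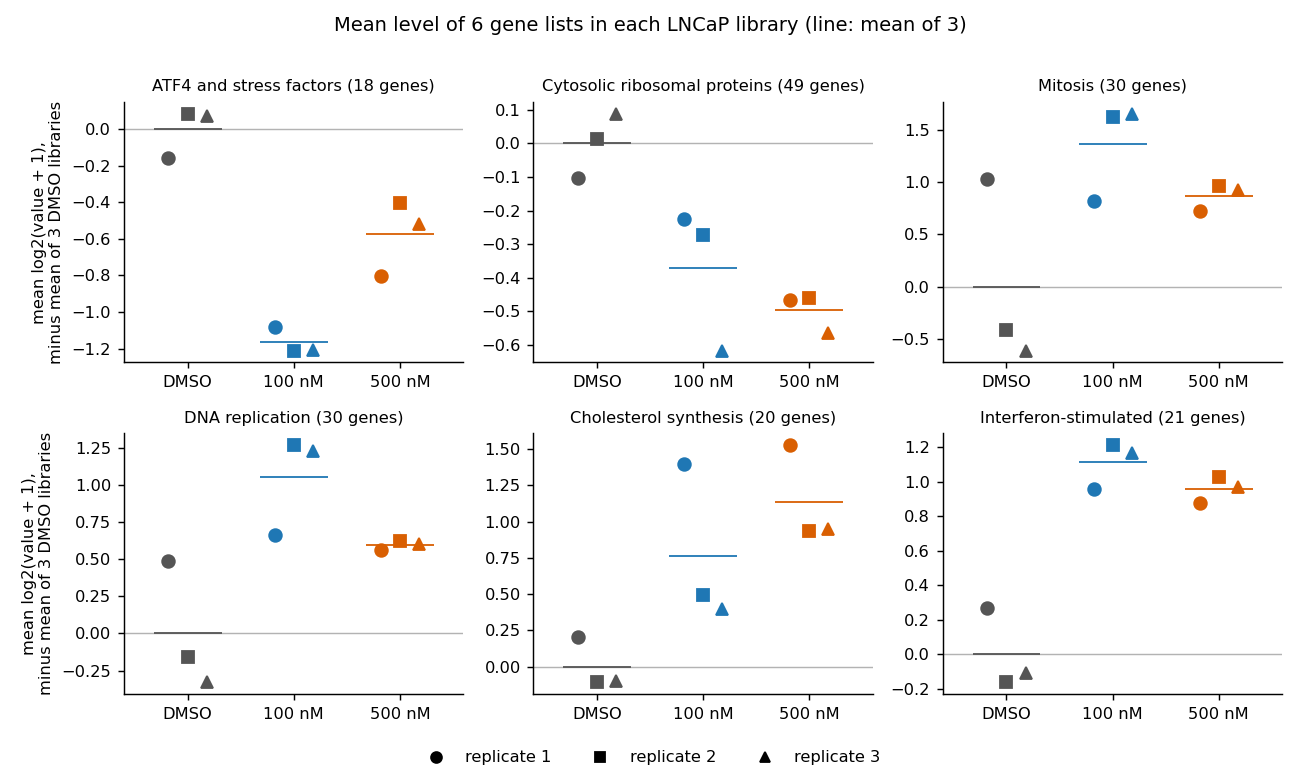
Mean log2(value + 1) of 6 gene lists in each of the 9 LNCaP libraries, minus the mean of the 3 DMSO libraries; symbols are libraries by replicate number and lines are means of 3. The ATF4 list is lower and the DNA replication and interferon lists are higher in every 100 nM library than in every DMSO library, while DMSO replicate 1 lies above 100 nM replicate 1 for the mitosis list.

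FASN, the gene of the drug's target, did not pass the test at 100 nM, and its call depended on the setting. FASN had 54998, 29273 and 28676 in DMSO and 227520.0, 51994 and 45537 at 100 nM, with DMSO replicate 1 above 100 nM replicates 2 and 3 (1.18 ± 0.52, adjusted p = 0.115 in limma). It passed in 5 of 18 alternatives: with the replicate block (adjusted p = 0.00838), quantile normalisation (0.0423), array weights (0.0153), all 27 libraries in 1 fit (0.0175) and replicates 2 and 3 alone (0.000981). Its log2 fold change ran from 0.44 without 100 nM replicate 1 to 1.60 without 100 nM replicate 3. Within each replicate number FASN was higher at 100 nM than in DMSO. Whether the numbers pair the libraries was not settled. ACACA, which makes malonyl-CoA, had 14027, 8956 and 8328 against 20675, 10441 and 12565 (0.46 ± 0.25, adjusted p = 0.19), and ACLY, which makes acetyl-CoA from citrate, 16182, 12229 and 11502 against 21945, 11474 and 11262 (0.11 ± 0.26, adjusted p = 0.789). For both, as for FASN, 100 nM replicate 1 was the highest library and the groups overlapped. In this list of 11 genes 1 was called lower, a share near the 11.6% of all genes, and none higher. It was MID1IP1, an activator of acetyl-CoA carboxylase (-0.58 ± 0.16, adjusted p = 0.0203). Its call was lost without DMSO replicate 2 or 3 and without 100 nM replicate 2 or 3. Without DMSO replicate 1, 3 members were called higher, and 1 was without 100 nM replicate 3. The replicate block gave 4, array weights 7, all 27 libraries 3 and replicates 2 and 3 alone 4.

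Genes of desaturation, elongation and sterol synthesis rose in part. Of 13 desaturases and elongases 6 rose, beside 13.7% of all genes. FADS2, which makes polyunsaturated fatty acids, had 7605, 4091 and 4049.6 in DMSO and 20981, 12030.0 and 10416 at 100 nM (1.46 ± 0.27, adjusted p = 0.00328 in limma). ELOVL6, which lengthens palmitate, had 284, 192 and 223 against 1157, 449.8 and 538 (1.5 ± 0.32, adjusted p = 0.00757). The groups did not overlap in either gene, and 100 nM replicate 1 was well above the other treated libraries. ELOVL1 (0.82 ± 0.12, adjusted p = 0.000938), for very long chains, was more even, with 3164, 2942 and 2390.5 at 100 nM. Of 20 cholesterol synthesis genes 11 rose, beside the same 13.7%, with a median of 0.87. EBP, a sterol isomerase late in the pathway, had 1276, 858 and 848 against 3282, 2479 and 1975 (1.37 ± 0.22, adjusted p = 0.00149), and ACAT2, a thiolase at its start, 1582, 1309 and 1377 against 3633, 2682 and 2366 (1.0 ± 0.19, adjusted p = 0.00399). FDFT1, squalene synthase, had 5473, 3774 and 3614 against 20997, 8339.8 and 7169.9 (1.36 ± 0.35, adjusted p = 0.0164). The list count fell to 2 without DMSO replicate 2 or 3 and to 5 without 100 nM replicate 1, and FDFT1 lost its call without either of those DMSO libraries. EBP and ACAT2 kept theirs in every setting tried.

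Genes of sterol control and uptake rose in part. Of 12 SREBP factors, regulators and sterol uptake genes 5 rose, beside 13.7% of all genes. NPC1, the membrane protein that exports cholesterol from lysosomes, had 1773, 1441 and 1334 in DMSO and 6801, 3856 and 4061 at 100 nM (1.65 ± 0.18, adjusted p = 0.000198 in limma), and its soluble partner NPC2 had 1399, 918 and 900.5 against 2496, 1895 and 1622 (0.91 ± 0.20, adjusted p = 0.00828). Both were higher in every treated library. The SREBP genes themselves did not pass the test: SREBF1 had 10858, 9146 and 8440.0 against 20718, 11080.0 and 10585 (0.51 ± 0.21, adjusted p = 0.0969) and SREBF2 6896, 4904 and 4794 against 9106, 4900.3 and 4556 (0.11 ± 0.23, adjusted p = 0.754). Nor did INSIG1, a sterol sensor (1.59 ± 0.58, adjusted p = 0.0634), whereas its relative INSIG2 rose (0.56 ± 0.14, adjusted p = 0.0135). SREBF1 and INSIG1 each passed in 8 of 18 alternatives, the fit with all 27 libraries, DESeq2 and replicates 2 and 3 alone among them. The list count was 8 without DMSO replicate 1 and 3 without DMSO replicate 2, DMSO replicate 3 or 100 nM replicate 1. Among 8 LXR and sterol export genes 3 rose, beside 13.7% of all genes. They were ABCG1, a sterol exporter (1.09 ± 0.19, adjusted p = 0.00265), LPCAT3, a phospholipid remodelling enzyme (0.64 ± 0.13, adjusted p = 0.00524), and ABCG2, a drug exporter. ABCG2 went from 10.4, 1.90 and 2.0 to 35, 44.6 and 45.1 (3.19 ± 0.48, adjusted p = 0.00112). It was at 10 or more in only 1 DMSO library and so passed the filter only with treated libraries. The SREBP element letters TCACNCCAC were found in 1.09% of all genes. They were found in 0 of 15 cholesterol genes with a promoter sequence and 1 of 11 genes of the SREBP list (9.09%, SREBF2). The letters CCAAT were found in 13 of the 15 cholesterol genes (86.7%) and in 37% of all genes. Only these spellings were searched, in the 250 bases before the start, so no match does not show that a site is absent.

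Genes that take up, activate, burn or store fatty acids changed in few and mixed cases. Of 11 uptake and activation genes 3 rose: ACSL5 had 13.8, 9.48 and 16 in DMSO and 42.2, 62.7 and 58.3 at 100 nM (1.98 ± 0.26, adjusted p = 0.000479 in limma), ACSL4 rose by 1.21 and SLC27A2 by 0.90. ACSL4 and ACSL5 join fatty acids to coenzyme A, and SLC27A2 imports very long chains. The list count was 5 without DMSO replicate 1 or 100 nM replicate 3. Among 20 oxidation genes 4 were called higher and 2 lower, beside 13.7% and 11.6% of all genes. CPT1A, the entry step into mitochondria, had 3752, 3322 and 3189 against 1093, 2329.7 and 2618, with 100 nM replicate 1 far below the others (-0.86 ± 0.25, adjusted p = 0.0278), and its call was lost without DMSO replicate 2 or 3, with equal totals and with only the 6 libraries compared. ACADVL, a dehydrogenase of very long chains, fell from 11499, 11708 and 11527 to 6341, 8026 and 7631 (-0.67 ± 0.10, adjusted p = 0.00142), and HADH, a later step, rose (0.45 ± 0.075, adjusted p = 0.00213). Of the oxidation genes, 1 was called higher without DMSO replicate 2, DMSO replicate 3 or 100 nM replicate 2, and 4 were called lower without DMSO replicate 1 and 1 without DMSO replicate 2. Of 19 phospholipid synthesis genes 5 rose, beside 13.7% of all genes. Among them were LPCAT1 (0.86 ± 0.12, adjusted p = 0.000623), which acylates lysophosphatidylcholine, and CHPT1 (0.85 ± 0.13, adjusted p = 0.00126), which completes phosphatidylcholine. DGAT2, the last step of triglyceride synthesis, rose from 900.2, 869 and 869 to 1432, 1433 and 1212 (0.62 ± 0.092, adjusted p = 0.00105). CERS6, a ceramide synthase that prefers palmitoyl-CoA, rose too (0.90 ± 0.13, adjusted p = 0.000936).

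Part of the androgen-induced genes fell. Of 28 measured 13 fell, beside 11.6% of all genes, and none passed the test upward, with a median log2 fold change of -0.37. TSC22D3, which encodes GILZ and is induced by steroid hormones, had 1044, 1005 and 997 in DMSO and 192, 209 and 261 at 100 nM (-2.21 ± 0.13, adjusted p = 9.49e-06 in limma). The controls were within a narrow range, and every treated library lay far below them. KLK3, which encodes prostate-specific antigen, had 12816, 12836 and 11703 against 2702, 4496 and 4482 (-1.71 ± 0.20, adjusted p = 0.000246), and its neighbour KLK2 5945, 2840.4 and 2687 against 1409.6, 1334 and 1311 (-1.40 ± 0.25, adjusted p = 0.00268). In KLK3 the lowest library was 100 nM replicate 1, and in KLK2 DMSO replicate 1 was the highest. TMPRSS2, a surface protease, fell by 1.03, UAP1, an enzyme of amino sugar synthesis, by 0.99 and SLC45A3, a prostate sugar carrier, by 0.76. FKBP5, a chaperone of steroid receptors, had 1193, 657 and 681 against 1120.1, 1161 and 1091 and did not pass the test (0.47 ± 0.19, adjusted p = 0.0872). Nor did KLK4 (-0.42 ± 0.16, adjusted p = 0.0807). Without DMSO replicate 1, 4 members of the list were called higher, as in replicates 2 and 3 alone, and with any 1 library left out 11 to 15 were called lower.

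Cofactors and enzymes of the androgen pathway moved in both directions. FOXA1, a pioneer factor that opens chromatin in prostate cells, fell from 9234, 9589.6 and 10143 in DMSO to 7490.1, 6287 and 6418 at 100 nM (-0.52 ± 0.090, adjusted p = 0.00246 in limma), and the coactivator CREBBP fell by 0.45. FOLH1, which encodes prostate-specific membrane antigen, had 37775, 37477 and 39604 against 42057, 34461 and 33467, with overlapping groups (-0.07 ± 0.12, adjusted p = 0.694). Among 11 enzymes of steroid and androgen metabolism 6 rose, beside 13.7% of all genes. SRD5A1, a steroid 5-alpha-reductase, had 457, 397 and 413 against 803, 682 and 573 (0.69 ± 0.15, adjusted p = 0.00846), and HSD17B11 152, 75.8 and 78 against 228, 206 and 198 (1.11 ± 0.23, adjusted p = 0.00637). AKR1C1, which reduces steroids, went from 21.9, 6.64 and 9.99 to 47.4, 73.8 and 59.9 (2.28 ± 0.36, adjusted p = 0.00156), a value that is uncertain because its family shares near-identical sequence. AKR1C1 was under 10 in DMSO replicates 2 and 3 and so passed the filter only with treated libraries. The number of these enzymes called higher was 3 without DMSO replicate 2, 4 without DMSO replicate 3 or 100 nM replicate 1, and 9 without DMSO replicate 1. Of 11 androgen-repressed genes 3 rose and 3 fell, beside 13.7% and 11.6% of all genes. BCHE, butyrylcholinesterase, had 5031, 10598 and 11258 against 3299, 3976 and 4433 and fell (-1.12 ± 0.25, adjusted p = 0.00868). UGT2B15, which conjugates androgens, had 785, 2717 and 2893 against 4599, 8292 and 8054 (1.88 ± 0.46, adjusted p = 0.0138), and its call was lost without 100 nM replicate 2, the setting in which none of this list was called higher.

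Genes induced by interferon rose from low levels. Of 21 measured 13 rose, beside 13.7% of all genes, with a median log2 fold change of 0.90. IFI27 and OAS1, both called, were below 10 in every DMSO library, as were 231 of all genes tested. Such genes entered the test only through treated libraries. Genes with only part of the DMSO libraries at 10 or more, such as IFIT1, also needed treated libraries to pass. With the stricter minimum of 50, 10 of the interferon list were called. IFIT1, which binds foreign RNA, had 24.2, 7.58 and 8.0 in DMSO and 70.1, 104 and 127 at 100 nM (2.98 ± 0.38, adjusted p = 0.000469 in limma). IFI44 had 34.6, 39.8 and 44 against 122, 171 and 169.6 (1.93 ± 0.18, adjusted p = 7.32e-05), and OAS1, which makes the activator of RNase L, 8.08, 4.74 and 4.0 against 25.8, 36.2 and 38.1 (2.41 ± 0.32, adjusted p = 0.000552). The groups did not overlap in these genes, and the controls were low. ISG15, a ubiquitin-like modifier, rose by 0.90, IRF1, a transcription factor of this response, by 1.02 and IFIH1, the RNA sensor MDA5, by 1.11. With any 1 library left out, 10 to 13 of the 21 were called higher. Of 14 genes of MHC class I presentation 6 rose, beside the same 13.7%. PSMB9, a subunit of the immunoproteasome, had 4.62, 5.69 and 5.0 against 41.2, 36.2 and 34.2 (2.65 ± 0.27, adjusted p = 0.000113), and B2M, the light chain of class I molecules, 2282, 1836 and 1888 against 4608, 3864 and 3721 (1.02 ± 0.12, adjusted p = 0.000227). PSMB9, below 10 in every DMSO library, also entered the test only through treated libraries. TAPBP (1.11) and TAP1 (0.88), which load peptides, rose as well. The 9 leukocyte markers summed to 13.0 to 29.4 in DMSO and 90.5 to 124 at 100 nM. Of these, PTPRC, CD3E, CD3D, MS4A1, CD14 and LYZ were below 10 in each of the 6 libraries. The sum rested on CD68, with 19.6, 27.5 and 11 against 92.7, 71 and 89.5 (2.15 ± 0.29, adjusted p = 0.000627), and ITGAM, which was at 0 in the 3 DMSO libraries and at 26.8, 13.9 and 17.9 at 100 nM. ITGAM, too, passed the filter only through treated libraries. Against the level that 3 counts over the DMSO group would give, 1.03, ITGAM was at least 19.0-fold higher.

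Lysosomal genes rose in part. Of 25 in the list 8 rose, beside 13.7% of all genes, and 7 to 10 did so when 1 library was left out. GPNMB, a glycoprotein induced by MITF and TFE factors, had 122, 63.5 and 63 in DMSO and 949, 540.3 and 604 at 100 nM (3.09 ± 0.26, adjusted p = 4.28e-05 in limma). MCOLN1, the lysosomal calcium channel, had 415, 379 and 347 against 827, 753 and 594 (0.92 ± 0.16, adjusted p = 0.0024), and CTSA, a protease, 644, 467 and 433 against 1186, 1174 and 981 (1.13 ± 0.15, adjusted p = 0.000469). All 3 were higher in every treated library. OPTN, an autophagy receptor, rose from 150.0, 124 and 118 to 469.9, 389 and 369.5 (1.64 ± 0.14, adjusted p = 4.63e-05).

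Other stress and energy genes showed mixed directions. Of 18 targets of hypoxia-inducible factors 6 fell and 3 rose, beside 11.6% of all genes called lower and 13.7% called higher. NDUFA4L2, which lowers the activity of respiratory complex I, had 248, 183 and 205 in DMSO and 29.9, 20.9 and 24.9 at 100 nM (-3.02 ± 0.22, adjusted p = 1.93e-05 in limma), and VEGFA, also an ATF4 target, 1530.3, 1879 and 1701 against 818, 617 and 625 (-1.32 ± 0.13, adjusted p = 8.79e-05). EGLN3, an oxygen-sensing hydroxylase, rose instead, from 237, 149 and 115 to 492, 397 and 439 (1.46 ± 0.21, adjusted p = 0.00098). SLC2A1, the main glucose carrier, had 2335, 1228 and 1221 against 1396, 1175 and 1075, with overlapping groups (-0.33 ± 0.22, adjusted p = 0.287). Of 23 glycolysis and lactate genes 3 were called lower, a share near that of all genes, and 1 higher. Without DMSO replicate 1, 14 were called higher. That library was the highest control for LDHA, the lactate dehydrogenase subunit, with 25346, 9376 and 10280.0 in DMSO and 16406, 16765 and 14748 at 100 nM (0.24 ± 0.29, limma adjusted p = 0.553). The 13 mitochondrially encoded genes had a median of 0.31, with log2 fold changes from 0.03 to 0.44. The groups overlapped in all 13, and limma, edgeR and DESeq2 each called 0, with 0 at an unadjusted p under 0.05 in limma, while array weights gave 3 and quantile normalisation 1. Of 31 nuclear respiratory chain genes 5 were called higher, a share near the 13.7% of all genes, with a median of 0.13. The count was 10 without DMSO replicate 1, 9 without 100 nM replicate 3 and 3 without any 1 of the others. Of 16 heat shock genes 8 rose, beside 13.7% of all genes. The count was 3 without DMSO replicate 2 or 100 nM replicate 2 and 5 without DMSO replicate 3. The largest rise was that of HSPB8, a small chaperone, with 6.92, 8.53 and 8.99 against 76.2, 66.8 and 63.8 (2.94 ± 0.25, limma adjusted p = 4.28e-05). HSPB8 was below 10 in every DMSO library and so passed the filter only through treated libraries. TFRC, the transferrin receptor, rose from 5969, 3440.5 and 3319 to 9658, 7224 and 8537 (1.04 ± 0.20, adjusted p = 0.00391).

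Growth factor genes changed in shares near those of all genes and in both directions. Of 18 immediate early and MAPK feedback genes 4 rose and 3 fell, and of 12 genes of the insulin-like growth factor axis 2 rose and 2 fell, beside 13.7% and 11.6% of all genes. DUSP4, a phosphatase that ends ERK signals, had 981, 1176 and 1370.2 in DMSO and 293, 365 and 373 at 100 nM and fell (-1.77 ± 0.14, adjusted p = 3.09e-05 in limma), whereas DUSP5, another such phosphatase, had 62.3, 80.6 and 76 against 123, 179.6 and 169.6 and rose (1.09 ± 0.20, adjusted p = 0.00304). IGFBP3, which binds insulin-like growth factors, had 34.6, 84.4 and 48 against 231, 171 and 201 (1.92 ± 0.28, adjusted p = 0.000926). PIK3R3, a regulatory subunit of PI3-kinase, had 1338, 835 and 762 against 2546, 2131 and 2467 (1.32 ± 0.18, adjusted p = 0.000589). Both rose, with no overlap between the groups. IRS1 (-0.91 ± 0.25, adjusted p = 0.0209), an adaptor of the insulin and IGF receptors, was called lower, but not without 100 nM replicate 2 or 3. CD276, which encodes the surface antigen B7-H3, rose from 1635, 1542 and 1541 to 2880.0, 2523 and 2349 (0.71 ± 0.088, adjusted p = 0.000378).

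The largest rises were in genes with low levels in DMSO, several of which passed the filter only through treated libraries. AGR2, a protein folding enzyme of mucus-secreting cells, had 8.08, 8.53 and 15 in DMSO and 369, 289.6 and 228 at 100 nM (4.71 ± 0.27, adjusted p = 7.39e-06 in limma). DIO3, which inactivates thyroid hormone, had 150.0, 16.1 and 27 against 1823, 1053 and 1000.4 (4.90 ± 0.61, adjusted p = 0.00037), and NOS3, the endothelial nitric oxide synthase, 139.6, 31.3 and 34 against 2041, 990.1 and 861 (4.47 ± 0.49, adjusted p = 0.000165). In the last pair DMSO replicate 1 and 100 nM replicate 1 were each the highest of their group. Of 7 measured genes of mucosal secretory epithelium, AGR2 and KRT20 rose, TFF3, a secreted mucosal peptide, fell (-0.76 ± 0.14, adjusted p = 0.00352), and 4 did not pass, and the marker sums overlapped, at 678 to 891 in DMSO and 681 to 1020.1 at 100 nM. KRT20, a keratin of gut and urothelium, had 3.46, 1.90 and 2.0 against 60.8, 52.9 and 68.5 (4.18 ± 0.28, adjusted p = 1.88e-05). LAMB3, a chain of laminin in basement membranes, had 10.4, 12.3 and 9.99 against 196, 157 and 116 (3.70 ± 0.21, adjusted p = 7.39e-06), and the collagenase MMP13 and stromelysin MMP10 rose by 3.28 and 3.42. UGT2B10 had 66.9, 55 and 47 against 696, 1502 and 1403 (4.33 ± 0.32, adjusted p = 2.06e-05), a value made uncertain by its close relatives. The 15 largest rises also included GCG, CLEC7A, MYOZ1, KRT75, MALL and ACSS3, with log2 fold changes between 3.28 and 4.43. VIM, a mesenchymal marker, rose from 264, 124 and 117 to 438, 453 and 369 (1.41 ± 0.28, adjusted p = 0.00548).

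The largest falls were of smaller size. DMGDH, a mitochondrial enzyme of choline breakdown, had 96.9, 188 and 183 in DMSO and 23.7, 8.36 and 24.9 at 100 nM (-3.05 ± 0.42, adjusted p = 0.000729 in limma), with DMSO replicate 1 the lowest control. PDE2A, a phosphodiesterase, had 65.8, 63.5 and 64 against 8.24, 15.3 and 7.0 (-2.62 ± 0.32, adjusted p = 0.000325), and ULBP1, a ligand of the natural killer cell receptor NKG2D and a target of ATF4, 255, 301 and 286 against 56.7, 65.4 and 74.7 (-2.08 ± 0.18, adjusted p = 4.7e-05). FAM129A, also called NIBAN1 and linked to the eIF2 stress response, had 428, 356 and 461 against 105, 78 and 125 (-2.02 ± 0.24, adjusted p = 0.000279). The remaining genes of the 15 largest falls not yet named were LPO, MOV10L1, ARHGAP9, BCL11B, FLRT1 and TGM1, between -2.79 and -1.96.

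The higher dose of 500 nM was set beside 100 nM in the same fit. Both doses share the 3 DMSO libraries, so their values against DMSO are given side by side and not as repeats of each other. The direct test of 500 nM against 100 nM called 1 of 12837 genes (0.00779%), with 1463 genes at an unadjusted p under 0.05 in limma. That gene was DDIT3, with 628, 419 and 486 at 100 nM and 1139.5, 1469 and 1352 at 500 nM, a difference of 1.38 ± 0.15 (adjusted p = 0.024). The 500 nM libraries all lay above the 100 nM libraries. edgeR on recovered reads called 1 gene and DESeq2 93. With 1 library left out the count ran from 0 to 67: 67 genes were called when 100 nM replicate 1 was removed, 5 when 500 nM replicate 1 was, and 0 when replicate 2 or 3 of either dose was. At 500 nM against DMSO, 9.83% of genes were called lower and 11% higher. The ATF4 list had 10 members lower and 3 higher there (median -0.67), against 14 and 1 at 100 nM (median -1.26), and ATF4 itself had 7037, 10663 and 9196 at 500 nM. SESN2 had -0.39 at 500 nM beside -1.18 at 100 nM, and VEGFA -0.55 beside -1.32. Of the mitosis list 4 were called higher at 500 nM (median 0.88) and of DNA replication 12 (median 0.61), beside 26 and 25 at 100 nM. Of cholesterol synthesis genes 17 were called higher at 500 nM (median 1.20), beside 11. The direct difference between doses was not called for CDK1 or FDFT1, which does not show that the doses act alike. For CDK1 it was -0.43, with a 95% interval from -1.07 to 0.21, and for FDFT1 0.71, from -0.06 to 1.47.

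The effect of 100 nM in LNCaP was tested against that in the other lines, each with its own 3 DMSO libraries. 22Rv1, from a relapsed xenograft, and LNCaP95 are both labelled castration resistant. The effect differed from that in 22Rv1 in 8.71% of 12176 genes, 5.22% higher in LNCaP and 3.49% lower, and from that in LNCaP95 in 44.3% of 12219 genes, 21.7% higher and 22.6% lower. The count against 22Rv1 was 540 without LNCaP DMSO replicate 3, 563 without LNCaP DMSO replicate 2, 544 without LNCaP 100 nM replicate 2, 691 and 609 without 22Rv1 DMSO replicates 2 and 3, 589 without 22Rv1 100 nM replicate 1 and 1934 without LNCaP DMSO replicate 1, beside 1061 with all libraries. With libraries scaled to equal totals, 79.3% of those called were higher in LNCaP, beside 59.9%, and the median difference over all genes moved from -0.0060 to 0.128.

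The ATF4 list went in opposite directions in LNCaP and LNCaP95. In LNCaP95, where 28.2% of all genes were called higher and 24.1% lower at 100 nM, 17 of its 18 members were called higher and 1 lower (median 1.24), and in 22Rv1, with 3.19% and 3.36%, 1 was called and it was lower (median -0.12). The effect in LNCaP was called lower than in LNCaP95 for 17 of 18 members and lower than in 22Rv1 for 13. For CHAC1 the log2 fold change was -2.54 in LNCaP, -0.63 in 22Rv1 and 1.84 in LNCaP95, and the difference between LNCaP and LNCaP95 was -4.38 ± 0.30 (limma adjusted p = 2.34e-07). ASNS had -1.85, 0.32 and 1.21 in the same order, and differed from both lines (adjusted p = 0.000272 and 1.11e-07). Serine genes were called lower in LNCaP than in 22Rv1 and than in LNCaP95 in 13 of 15 cases each, and transporters in 8 and 10 of 11.

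Cell cycle genes were also opposed. All 30 mitosis genes were called lower in LNCaP95 at 100 nM (median -1.38), and 6 in 22Rv1 (median -0.29). The effect in LNCaP was called higher than in LNCaP95 for 30 of 30 mitosis genes and 30 of 30 DNA replication genes, and higher than in 22Rv1 for 9 and 26. CDK1 had 1.93 in LNCaP, -0.36 in 22Rv1 and -2.03 in LNCaP95, and MCM10 2.18, -0.49 and -1.96. The difference from LNCaP95 was 4.14 ± 0.45 for MCM10 (limma adjusted p = 1.23e-05). Ribosomal protein genes had positive medians in 22Rv1 (0.19) and LNCaP95 (0.11), and the effect in LNCaP was called lower than in LNCaP95 for 27 of 49 and than in 22Rv1 for 5.

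Cholesterol synthesis genes were called higher in all 3 lines. Of 20 cholesterol synthesis genes 14 were called higher in 22Rv1 (median 0.69) and 17 in LNCaP95 (median 0.62), beside 11 in LNCaP (median 0.87). Between LNCaP and LNCaP95, 2 were called higher in LNCaP and 3 lower. For EBP the effect was 1.37 in LNCaP, 0.40 in 22Rv1 and -0.51 in LNCaP95. Its difference from 22Rv1 was 0.97, with a 95% interval from 0.32 to 1.61 for this gene alone, and it did not pass after adjustment (adjusted p = 0.0637). Of the 20 genes, limma called 0 different between LNCaP and 22Rv1, with 2 at an unadjusted p under 0.05, edgeR called 0 and DESeq2 1. Interferon genes had medians near 0 in 22Rv1 (-0.0058) and LNCaP95 (-0.042). Of those measured in both lines, 3 of 16 differed between LNCaP and 22Rv1 and 10 of 19 were called higher in LNCaP than in LNCaP95. Androgen-induced genes had a median of -0.15 in 22Rv1 and 0.07 in LNCaP95, and 11 of 27 were called lower and 4 higher in LNCaP than in LNCaP95. For KLK3 the effect was -1.71, -0.29 and 0.58 in LNCaP, 22Rv1 and LNCaP95, and it differed from both (limma adjusted p = 0.00501 and 1.08e-05). GPNMB rose in all 3 lines, by 3.09, 2.75 and 3.43.

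**Figure D4:**
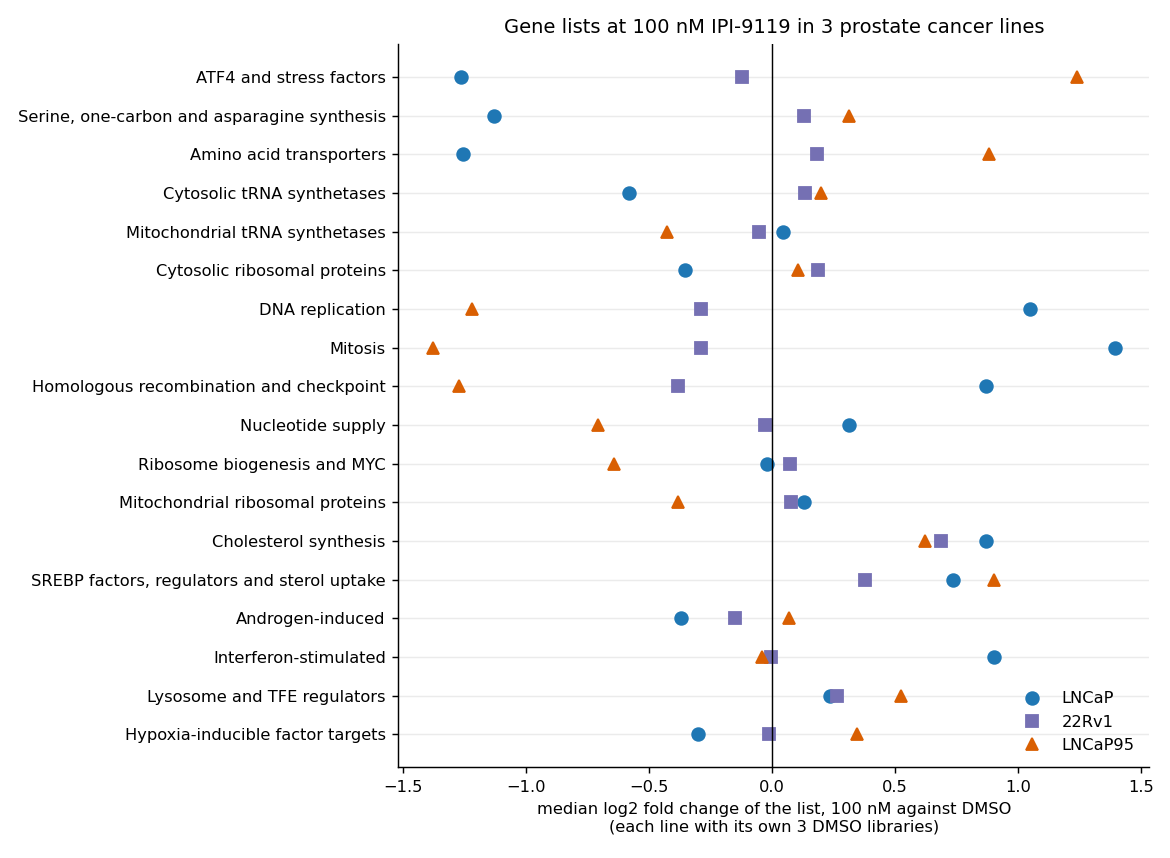
Median log2 fold change of 18 gene lists at 100 nM IPI-9119 against DMSO in LNCaP (circles), 22Rv1 (squares) and LNCaP95 (triangles), each line against its own 3 DMSO libraries. The ATF4, serine, transporter and cell cycle lists have medians of opposite sign in LNCaP and LNCaP95, whereas the medians of the cholesterol and SREBP lists are positive in all 3 lines.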

How the data were processed

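RNA of 27 libraries (3 prostate cancer lines, 3 treatments, 3 replicates) was sequenced as poly(A) RNA with a directional kit. The deposited table gives the authors' normalised signal, read counts per gene divided by a size factor per library. Per the submitters' processing notes, STAR 2.3.1z4, featureCounts and DESeq were used with build hg19, and overlapping genes are uncertain because the strand setting is not given in those notes. In each library the values were whole multiples of 1 step (tolerance 1e-06), which gave back whole reads.

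Values were tested as log2(value + 1) with limma 3.58.1 (R 4.3.3, trended variance) over the 9 LNCaP libraries in 1 fit, on genes with 10 or more in at least 3, with Benjamini-Hochberg adjustment and a threshold of 0.05. Differences between lines used 12 libraries. edgeR 4.0.16 and DESeq2 1.42.0 on recovered reads, other scalings, filters and left-out libraries were alternatives. On simulated data limma recovered 179 of 200 genes changed by 1 on the log2 scale among 12837, and 5.79% of its calls were false. The simulation drew each gene on its own, without a shift shared by the genes of a library. It does not give the error rate of the comparison itself. There replicate 1 differed most from the other libraries in both groups, and many more genes were called. Replicate numbers were not treated as pairs in the main test. The deviations of same-numbered DMSO and 100 nM libraries correlated at 0.0823, -0.0031 and 0.0036, and those of differently numbered ones at -0.123 to 0.143. These values do not settle whether the numbers pair the libraries, and the replicate block was an alternative.

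Gene lists and members were chosen with earlier results of these data known. Named genes were list members, led by the 4 smallest p-values in a list, the 15 largest rises and falls among called genes with separate groups and a mean of 50 or more, and the 8 largest differences each way between lines. Of 1006 list entries 2 were not matched to a symbol in the table. Some genes are not reported here.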

Additional observations from a re-analysis of the deposited data

Results flagged for a closer look

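The effect of 100 nM differed between LNCaP and 22Rv1 in 1061 genes and between LNCaP and LNCaP95 in 5415 genes, by the limma test of the difference itself (adjusted p under 0.05). The genes below have the largest such differences, as log2 fold change in LNCaP minus that in the other line.

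Against 22Rv1 the effect in LNCaP was higher by 5.0 for ALB, 4.51 for NOS3, 4.35 for UGT2B10, 4.10 for COL3A1, 3.80 for AOX1, 3.69 for MCAM, 3.62 for ACSL5 and 3.62 for LAMB3. ALB, which encodes albumin, rose in LNCaP (log2 fold change 2.81) and fell in 22Rv1 (-2.19), as did ACSL5 (1.98 and -1.64). The differences in the other direction were -4.81 for DMGDH, -3.16 for S100P, -3.10 for ARHGAP9, -3.09 for PDE2A, -3.01 for GDF15, -2.97 for FAM129A, -2.94 for BHLHE40 and -2.89 for NDUFA4L2. S100P (-1.19) and BHLHE40 (-0.41) did not pass the test within LNCaP, and both rose in 22Rv1 (1.96 and 2.53).

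Against LNCaP95 the effect in LNCaP was higher by 4.71 for UGT2B10, 4.46 for MALL, 4.27 for IFIT1, 4.19 for E2F2, 4.14 for MCM10, 4.01 for ADORA1, 3.99 for TUBA3D and 3.96 for CDK1. E2F2, MCM10 and CDK1 fell in LNCaP95, by 2.02, 1.96 and 2.03 on the log2 scale. The lowest differences were -6.38 for DMGDH, -6.16 for FIBIN, -6.07 for GPR1, -6.07 for PRSS1, -5.96 for LPO, -5.85 for KLHDC7B, -5.66 for PRSS3 and -5.38 for SERPINA3. All 8 fell in LNCaP and rose in LNCaP95. DMGDH was the lowest in both comparisons, at -3.05 in LNCaP, 1.76 in 22Rv1 and 3.33 in LNCaP95. The values of PRSS1, PRSS3, TUBA3D and UGT2B10 are uncertain, since each has close relatives that may share reads.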

How the results depend on the processing

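Leaving out 1 library gave 1747 to 4629 called genes for 100 nM against DMSO (3250 with all), 0 to 67 for 500 nM against 100 nM (1 with all), 540 to 1934 for the difference from 22Rv1 (1061 with all) and 4589 to 6143 for the difference from LNCaP95 (5415 with all). With array weights the 4 counts were 5781, 123, 2292 and 6922. With the replicate number as a block they were 4339, 0, 695 and 5760. Whether the numbers pair the libraries was not settled. DESeq2 called 93 genes between the doses. For 100 nM against DMSO, edgeR called 3199, DESeq2 3534, the 6 libraries alone 2179, all 27 libraries in 1 fit 3825 and replicates 2 and 3 alone 4573. Scaling to equal totals gave 3203, of which 65.7% were higher, against 54.3%. Of 248 named genes called, 200 were called in each alternative that tested them (183 in all 18, 17 in all but the stricter filter, which leaves those out) and 48 lost the call in at least 1. Many of them were named for small p-values or large changes in the same data, which favours stable calls. Of all 3250 genes called, 1742 were called again without DMSO replicate 2, 1728 without DMSO replicate 3 and 1834 without 100 nM replicate 2. The cause of these shifts was not tested. Depth is known only as reads in genes, and 3 libraries a group limit what could be called.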
